A study of Homo sapiens with 12 samples.

Results

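The response of HaCaT skin keratinocytes to hydrogen peroxide was read from 6 of the 12 libraries of the series, 3 from untreated cells and 3 from cells given 5 mM H2O2 for 3 h. Its members are the genes whose raw counts average 10 or more in these 6 libraries, which were 15792 of the 58735 genes in the count table. HaCaT is a spontaneously immortalized line of human epidermal keratinocytes that is known to carry mutant p53. The 6 libraries not described for their own sake came from TIGK, an immortalized line of human gingival keratinocytes, with the same treatment and 3 libraries per group. All cells were grown to confluence in one keratinocyte medium, which holds pituitary extract, hydrocortisone, TGF-α, insulin and epinephrine, so the untreated cells also had a glucocorticoid and a ligand of the EGF receptor. Each group is a single line, and no label states that its 3 libraries are separate cultures, so p-values measure the spread between these libraries, which may be technical. In the labels of the treated libraries the formula of the added compound runs from H2O2 to H2O4 over the replicates, whereas the treatment protocol names H2O2 for all of them.

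Hydrogen peroxide enters cells partly through aquaporins and oxidizes cysteine thiols, and it is removed by catalase, glutathione peroxidases and peroxiredoxins. Oxidized thiols on kinases, phosphatases, KEAP1 and chaperones link it to MAP kinase signalling and the immediate early genes, to the NRF2 pathway, to the heat shock response and to repair of oxidized DNA. In the epidermis, keratinocytes are joined to each other by desmosomes and anchored to the basement membrane by hemidesmosomes and an epidermal laminin, and they build the cornified envelope as they differentiate.

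Counts were scaled by edgeR's TMM method, and a normalized count is a count at the mean library size. A gene was called higher or lower at an adjusted p under 0.01 in the quasi-likelihood test of edgeR (adjusted by Benjamini-Hochberg across the 15792 genes). The libraries held between 32135195 and 49034244 counts. Of the genes tested, 2139 were higher (13.5%) and 2518 lower (15.9%) after H2O2, together 29.5%, and the median log2 fold change was 0.0091. The changes were mostly small. A log2 fold change beyond 1 was reached by 132 of the higher and 711 of the lower genes. The libraries of the groups did not overlap for 55.7% of all genes tested and for 4650 of the 4657 genes called. With library sizes in place of TMM, which shifts the median of all genes to 0.057, the split was 2902 higher and 2197 lower. The count of higher genes was 1310 without treated replicate 2, 1219 without untreated replicate 1, 1179 without untreated replicate 2 and 1061 without untreated replicate 3. Keratinocyte markers, 10 of 10 over the limit, summed to between 41417 and 43346 counts scaled by library size (CPM) in untreated and between 45338 and 47667 CPM in treated libraries. Most of that sum came from KRT5, KRT14 and KRT6A, and of the 10 markers 1 was called higher and 5 lower. The fibroblast list summed to at most 11.2 CPM, melanocyte markers to at most 6.35, endothelial markers to at most 1.66 and immune markers to at most 0.921, with COL1A2, DCT, TYR, CDH5 and KDR at 0 in all 6 libraries.

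Gene length moved with treatment. In the treated libraries the level fell by 0.129, 0.192 and 0.256 on the log2 scale, relative to the mean of the controls, for each doubling of the length of a gene's transcript model, and replicate 3 had the steepest slope. The slope was between -0.016 and 0.029 in the untreated libraries. Among protein-coding genes, 411 of the 1275 shortest were higher and 49 lower, with a median log2 fold change of 0.34, and 42 of the 1275 longest were higher and 543 lower, with a median of -0.27. After a length trend was taken out of each library, a step added after the data were seen, these counts were 93 and 125 in the shortest and 251 and 288 in the longest genes, and over all genes 1656 were higher (10.5%) and 2550 lower (16.1%). The study states in its methods that RNA integrity was checked and high in every sample, and no value per library was used here. The part of this trend in the results below was not tested, so the counts of gene lists are mostly given with and without it.

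**Figure D1:**
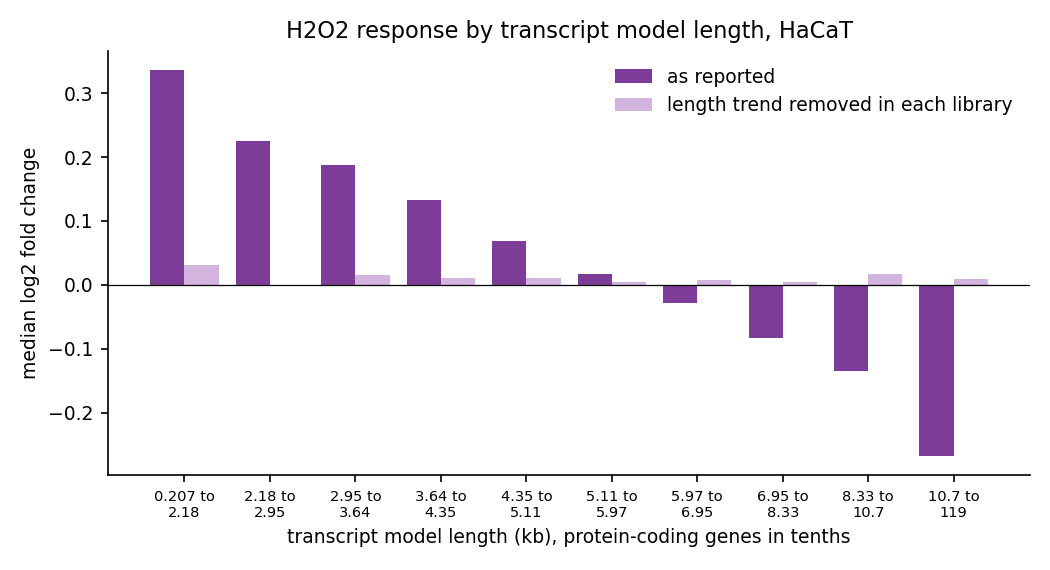
Median log2 fold change (H2O2 minus control) of protein-coding genes in 10 equal bins of transcript model length, from the shortest on the left to the longest on the right, in the fit as reported (dark bars) and after a length trend was removed in each library (pale bars). The dark bars step down from 0.34 to -0.27, and the highest pale bar is 0.031.

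**Figure D2:**
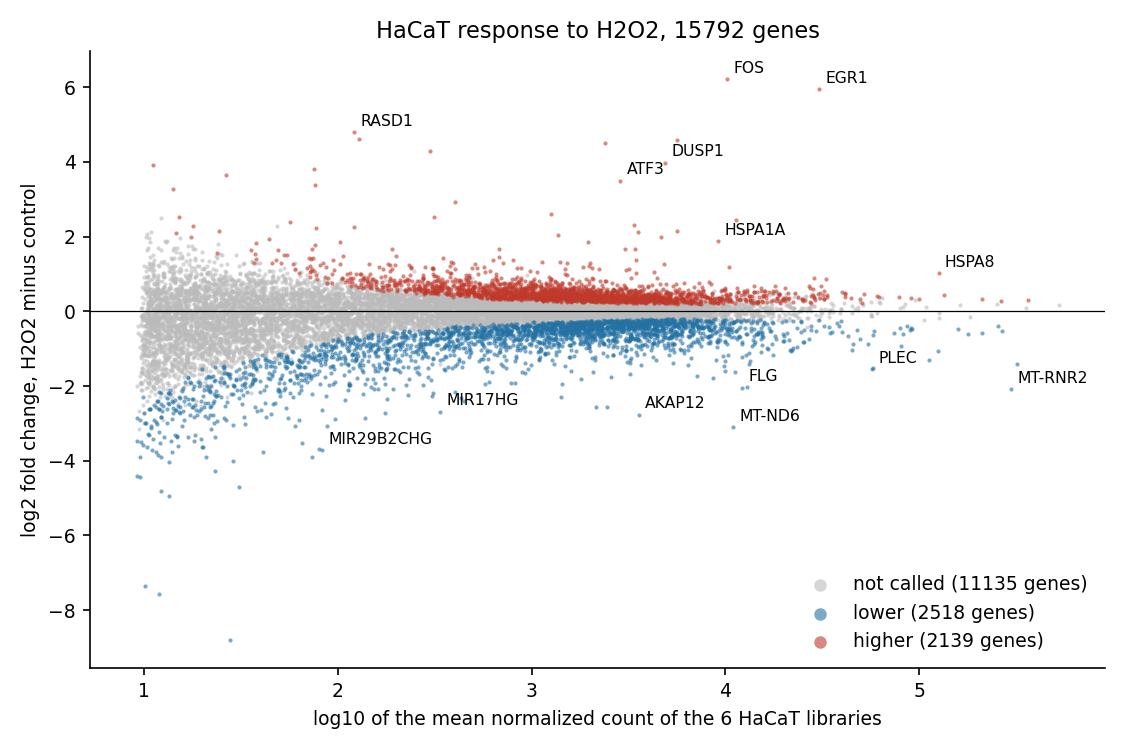
Log2 fold change of each of the 15792 genes against the log10 of its mean normalized count over the 6 HaCaT libraries, with the genes called higher in red, those called lower in blue and the others in grey. FOS and EGR1 stand at the top at 6.23 and 5.96, and among abundant genes MT-ND6 lies lowest at -3.10.

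The largest rises were those of immediate early genes, which are switched on within minutes of a stimulus without new protein synthesis and mostly encode transcription factors. Of the 25 tested members of the list, 18 rose and 2 fell, against 13.5% and 15.9% of all genes tested, and their median log2 fold change was 1.18. With the length trend removed, 16 were higher and 3 lower. EGR4, the remaining member, was below the count limit.

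FOS (ENSG00000170345, chr14:75278774-75282230, plus strand), a subunit of the AP-1 transcription factor, had 244, 247 and 317 normalized counts in the untreated libraries and 25738, 17734 and 16916 in the treated ones. It rose 74.9-fold (log2 fold change 6.23, standard error 0.17, edgeR adjusted p = 1.43e-11), and its lowest treated value was far above every untreated one. FOSB, its close relative, had 419, 499 and 433 normalized counts before and 13389.9, 10008 and 9116 after treatment (log2 fold change 4.59, standard error 0.14, edgeR adjusted p = 3.26e-11). ATF3, a stress-induced member of the same bZIP class, went from 476, 455 and 463 to 5940.4, 4594 and 5267 normalized counts (log2 fold change 3.50, standard error 0.094, edgeR adjusted p = 1.42e-11). The JUN proteins, which pair with FOS, rose less: the log2 fold change was 2.44 for JUNB (standard error 0.075), 1.27 for JUND (standard error 0.074) and 1.18 for JUN (standard error 0.081). The FOS relatives of the later wave did not follow. FOSL1 had 18882, 19888 and 21098 normalized counts before and 16734, 18882 and 17912 after treatment and was not called (log2 fold change -0.16), although it was lower with the length trend removed (-0.45), and FOSL2 fell by 0.26 on the log2 scale. Over the 41 bZIP factors of the annotation, the family of FOS, JUN and ATF proteins, 21 were higher and 4 lower. The falling immediate early genes, FOSL2 and NR4A3, numbered 1 without treated replicate 2, 1 without untreated replicate 1, 0 without untreated replicate 2 and 0 without untreated replicate 3. FOSL2 (edgeR adjusted p = 0.0111 to 0.0355) was not called without treated replicate 2 or untreated replicate 1 or 2 or 3. NR4A3 (edgeR adjusted p = 0.0104 to 0.0108) was not called without untreated replicate 2 or 3. FOSL2 (edgeR adjusted p = 0.016) was not called with the length trend removed.

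EGR1 (ENSG00000120738, chr5:138465490-138469315, plus strand), a zinc finger factor that answers growth signals, had 777, 1021 and 1099 normalized counts untreated and 62045, 64178 and 53464 treated. Its rise of 62.2-fold (log2 fold change 5.96, standard error 0.13, edgeR adjusted p = 1.49e-12) took it from 25.8 to 1657 CPM, one of the 5 largest gains of any gene on that scale. EGR2 went from 36.7, 23.2 and 24.6 to 468, 639 and 597 normalized counts (log2 fold change 4.30, standard error 0.20, edgeR adjusted p = 2.89e-09), and EGR3 from 349.8, 333 and 306 to 462, 801 and 607 (log2 fold change 0.92, standard error 0.16, edgeR adjusted p = 0.000581). The orphan nuclear receptor NR4A1 had 182, 231 and 199.7 normalized counts untreated and 4219, 4969.9 and 4623 treated (log2 fold change 4.50, standard error 0.10, edgeR adjusted p = 1.49e-12), and NR4A2 rose by 2.52 on the log2 scale (standard error 0.14). NR4A3, the third receptor of this family, moved the other way, from 77.1, 102 and 94.4 to 35.7, 41.9 and 43.1 normalized counts (log2 fold change -1.17, standard error 0.25, edgeR adjusted p = 0.00177). Among KLF factors KLF2 rose by 3.39 and KLF10 by 0.42 on the log2 scale, while KLF4 (0.16) and KLF6 (-0.16) were not called. ARC rose from 16.0, 3.32 and 8.85 to 94.1, 169 and 164 normalized counts and IER2 by 1.98 on the log2 scale. MYC (log2 fold change -0.18) and SRF (-0.0081), the factor that drives many of these genes, were not called.

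The 250 bases before the start of EGR1 are shown because it gained most in counts of these genes, with capitals at its CArG boxes, the motif that SRF binds. The sequence is that of RefSeq on GRCh38.p14, chr5:138465229-138465478, plus strand, and the boxes begin 105 and 83 bases before the RefSeq start. That start lies ahead of the gene span given above.
EGR1: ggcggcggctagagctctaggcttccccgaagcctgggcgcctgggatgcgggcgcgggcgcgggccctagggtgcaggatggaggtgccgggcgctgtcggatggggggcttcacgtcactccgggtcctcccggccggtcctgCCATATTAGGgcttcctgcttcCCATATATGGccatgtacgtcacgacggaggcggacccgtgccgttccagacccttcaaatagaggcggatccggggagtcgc
Searched on both strands, a CArG box was found in 1.14% of 27305 RefSeq windows of this length and in 2 of the 18 immediate early genes that matched a window, EGR1 and SRF itself. A match is a match of letters and not a measured site.

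**Figure D3:**
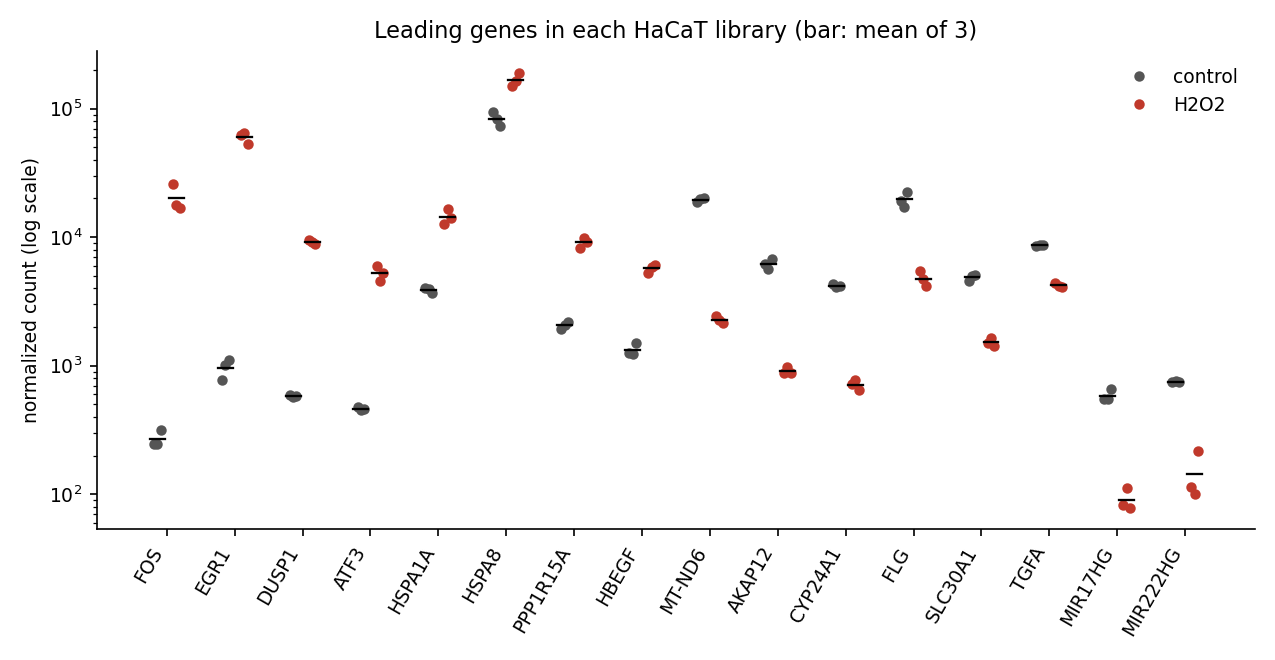
Normalized counts of 16 leading genes in each HaCaT library on a log scale, grey points for the 3 untreated and red points for the 3 treated libraries, with a bar at each mean. In each of these genes the treated and untreated points do not overlap, from FOS (untreated at most 317, treated at least 16916) to MIR222HG (untreated at least 742, treated at most 216). The groups did not overlap for 55.7% of all genes tested, and the rule that picked the largest rises and falls required it.

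MAP kinase feedback genes, which dampen the kinases that switch on the immediate early genes, moved in both directions: 5 of 16 rose and 4 fell (4 and 4 with the length trend removed). DUSP1 (ENSG00000120129, chr5:172768090-172771195, minus strand), a nuclear phosphatase for p38, JNK and ERK, had 589.6, 571 and 586 normalized counts untreated and 9496, 9236 and 8871 treated, a 15.8-fold rise (log2 fold change 3.98, standard error 0.066, edgeR adjusted p = 9.32e-14). DUSP2, also nuclear, went from 369.6, 313 and 378 to 1960.0, 2255 and 2303 (log2 fold change 2.62, standard error 0.10, edgeR adjusted p = 3.08e-10). DUSP6, the cytoplasmic ERK phosphatase, rose by 0.56, DUSP8 by 0.70 and SPRY2 by 0.43 on the log2 scale. DUSP4 went from 25450.4, 24505 and 25201 to 15402, 14199 and 13803 normalized counts (log2 fold change -0.79, standard error 0.061, edgeR adjusted p = 4.69e-07), and DUSP7 (-0.87), DUSP10 (-0.42) and SPRED1 (-0.38) also fell. Without untreated replicate 1 or 2 the higher members numbered 3, and without treated replicate 2 or untreated replicate 2 or 3 the lower ones numbered 2. DUSP8 (edgeR adjusted p = 0.0101 to 0.0169) was not called without treated replicate 2 or untreated replicate 1 or 2 or 3. SPRY2 (edgeR adjusted p = 0.0169 to 0.0176) was not called without untreated replicate 1 or 2. DUSP10 (edgeR adjusted p = 0.0102 to 0.0379) was not called without treated replicate 2 or 3 or untreated replicate 2 or 3. SPRED1 (edgeR adjusted p = 0.0159 to 0.023) was not called without treated replicate 2 or untreated replicate 2 or 3. SPRY2 (edgeR adjusted p = 0.0586) and SPRED1 (edgeR adjusted p = 0.0105) were not called with the length trend removed.

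The window before DUSP1 is printed because it rose most of these genes, with capitals at the 8-base motif TGACGTCA, which CREB and ATF proteins bind (RefSeq, GRCh38.p14, chr5:172771196-172771445, minus strand). The motif begins 125 bases before the start.
DUSP1: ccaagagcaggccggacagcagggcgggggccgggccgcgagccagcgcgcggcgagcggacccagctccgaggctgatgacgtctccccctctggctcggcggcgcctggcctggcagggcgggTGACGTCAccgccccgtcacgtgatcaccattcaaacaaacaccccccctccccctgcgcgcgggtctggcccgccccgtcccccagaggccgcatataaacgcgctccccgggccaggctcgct
It was found in 1.77% of the 27305 windows, in 2.86% of the 10606 that belong to genes tested here, and in 2 of the 18 immediate early genes with a window, JUND and MAFF.

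Several regulators of other signal pathways rose. RASD1, a small GTPase of the RAS family that glucocorticoids induce, had 11.5, 7.74 and 4.92 normalized counts untreated and 195, 229 and 281 treated (log2 fold change 4.80, standard error 0.29, edgeR adjusted p = 4.27e-08). Its untreated values are close to the lower end of what was tested. RGS16, which shortens G protein signals, went from 18.3, 17.7 and 18.7 to 71.3, 94.0 and 121 (log2 fold change 2.38, standard error 0.30, edgeR adjusted p = 3.78e-05), and the small GTPase RND3 from 2599.6, 2774 and 2948 to 5713, 5594 and 6032 (log2 fold change 1.06, standard error 0.065, edgeR adjusted p = 5.58e-08). ID2, an inhibitor of bHLH factors, went from 117, 78.5 and 83.6 to 568, 557 and 1006 (log2 fold change 2.91, standard error 0.23, edgeR adjusted p = 6.12e-07). ZFP36, a zinc finger protein that marks AU-rich mRNAs for decay, had 1055, 1216 and 1137 normalized counts untreated and 5959, 6016 and 4951 treated (log2 fold change 2.31, standard error 0.086, edgeR adjusted p = 2.83e-10). No untreated value of these 5 genes reached a treated one, and the groups did not overlap for 55.7% of all genes tested. Of all 72 regulators of G protein signals and small GTPases of the RAS superfamily 21 rose and 3 fell (15 and 6 with the length trend removed). The rises numbered 12 without treated replicate 2, 11 without untreated replicate 2 and 11 without untreated replicate 3, and the falls 5 without treated replicate 3. Of 25 mRNA decay factors, the list that ZFP36 belongs to, 5 rose and 6 fell (6 and 6 with the length trend removed). TOB1, which recruits a deadenylase, was among those that rose (1.13) and the decapping enzyme DCP2 among those that fell (-0.66).

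In the heat shock response, 19 of the 28 genes rose and 0 fell at an adjusted p under 0.01 in edgeR, with a median log2 fold change of 0.45. With the length trend removed, 18 were higher and 0 lower. These genes encode chaperones and their partners, which refold or hold damaged proteins and are largely under the factor HSF1. HSPA1A (ENSG00000204389, chr6:31815464-31817946, plus strand), the stress-inducible HSP70, had 4049, 3982 and 3655 normalized counts untreated and 12635, 16587 and 14073 treated (log2 fold change 1.89, standard error 0.089, edgeR adjusted p = 4.06e-09). HSPA1B, whose coding sequence is nearly identical, so that reads may be split between the pair, rose from 1553, 1546 and 1219 to 4287, 5248 and 4266 (log2 fold change 1.68, standard error 0.10, edgeR adjusted p = 5.36e-08). The related HSPA1L and HSPA6, which have few counts here, went from 37.4, 5.53 and 9.84 to 59.5, 73.6 and 79.9 and from 13.7, 9.96 and 11.8 to 33.5, 31.7 and 42.0 (log2 fold change 1.93 and 1.57). HSPA8, the constitutive HSP70, had 93438, 82496 and 73165 normalized counts untreated and 148951, 164555 and 190941 treated (log2 fold change 1.02, standard error 0.10, edgeR adjusted p = 2.81e-06), and its gain from 2219 to 4639 CPM was among the 5 largest of any gene. All 6 cochaperones of the list rose, by 0.37 to 0.50 on the log2 scale, among them BAG3, which links HSP70 to autophagy (0.48). DNAJB1, the HSP40 partner of HSPA1A, rose by 0.78 and the mitochondrial chaperonins HSPE1 and HSPD1 by 0.64 and 0.36. The small heat shock protein HSPB1 rose by 0.67 (2 others were not called, the lowest at -0.85) and HSP90AA1 by 0.44. HSP90AB1, the member with the highest level per kilobase (704 CPM per kilobase untreated), was not called (log2 fold change 0.20, edgeR adjusted p = 0.0107), nor was HSF1 itself (0.18). HSPA1L (edgeR adjusted p = 0.011 to 0.0328) was not called without treated replicate 2 or 3 or untreated replicate 2 or 3. HSPA6 (edgeR adjusted p = 0.0124 to 0.0244) was not called without treated replicate 2 or 3 or untreated replicate 1 or 2 or 3. HSPA1L (edgeR adjusted p = 0.0106) and HSPA6 (edgeR adjusted p = 0.019) were not called with the length trend removed.

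The window before HSPA1A is printed because HSPA1A has the highest treated level of the inducible HSP70 genes, and capitals mark the pattern GAANNTTC, a pair of facing GAA units as in heat shock elements (RefSeq, GRCh38.p14, chr6:31815293-31815542, plus strand). It begins 106 bases before the RefSeq start, which lies inside the gene span given above, so the window runs into that span.
HSPA1A: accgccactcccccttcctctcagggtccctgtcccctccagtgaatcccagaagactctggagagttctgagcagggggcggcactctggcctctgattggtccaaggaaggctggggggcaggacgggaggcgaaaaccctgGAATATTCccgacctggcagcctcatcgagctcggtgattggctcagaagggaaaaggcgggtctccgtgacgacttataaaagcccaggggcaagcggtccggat
The pattern was present in 11 of the 25 heat shock genes with a window, in 4.08% of the windows of all genes tested and in 5.85% of all 27305 windows. The 11 were CHORDC1, DNAJA1, DNAJB6, HSPA1A, HSPA1B, HSPA1L, HSPA6, HSPA8, HSPB1, HSPB8 and SERPINH1. Whether genes with the pattern rose more than those without it was not tested.

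Of the 20 genes of the unfolded protein response, which relieves crowding in the endoplasmic reticulum, 10 rose and 3 fell (7 and 2 with the length trend removed). HERPUD1, which serves degradation of misfolded proteins, had 2054, 1878 and 2103 normalized counts untreated and 3945, 4518 and 4663 treated (log2 fold change 1.12, standard error 0.076, edgeR adjusted p = 1.34e-07). The chaperones SDF2L1, DNAJB9 and MANF rose by 0.86, 0.73 and 0.50, and the master chaperone HSPA5 by 0.35 on the log2 scale. ERN1, which encodes the sensor IRE1, went from 1235, 1059.8 and 1062 to 627, 609 and 587 (log2 fold change -0.88, standard error 0.091, edgeR adjusted p = 6.71e-06), and EDEM1 (-0.34) and SEL1L (-0.22) also fell. Without untreated replicate 2 the falling members numbered 1. EDEM1 (edgeR adjusted p = 0.0107) was not called without untreated replicate 2. SEL1L (edgeR adjusted p = 0.0103 to 0.0508) was not called without treated replicate 2 or 3 or untreated replicate 1 or 2 or 3. MANF (edgeR adjusted p = 0.0153) and SEL1L (edgeR adjusted p = 0.404) were not called with the length trend removed.

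The integrated stress response acts through phosphorylation of eIF2α and the factor ATF4. In it 6 of 21 genes rose and 4 fell, and the counts were the same with the length trend removed. PPP1R15A, the inducible subunit of the phosphatase that reverses the eIF2α mark, had 1939, 2082 and 2191 normalized counts untreated and 8266, 9881 and 9215 treated (log2 fold change 2.14, standard error 0.077, edgeR adjusted p = 2.12e-10). DDIT3, the factor CHOP, went from 189, 180.3 and 189.8 to 249.7, 393 and 456 (log2 fold change 0.97, standard error 0.19, edgeR adjusted p = 0.00098), TRIB3 rose by 0.64 and ATF4 by 0.63. The amino acid transporters SLC7A5 and SLC7A11, which ATF4 is known to induce, were lower. SLC7A5, the leucine transporter, went from 68229, 67164 and 75750.1 to 40022, 41323 and 34000.1 (log2 fold change -0.87, standard error 0.078, edgeR adjusted p = 1.71e-06), and SLC7A11, the cystine transporter that feeds glutathione synthesis, from 1618, 1708 and 1802 to 1148, 1069 and 1056 (log2 fold change -0.65, standard error 0.077, edgeR adjusted p = 2.26e-05). CEBPB fell by 0.73 on the log2 scale and PPP1R15B, the constitutive phosphatase subunit, by 0.27. PPP1R15B (edgeR adjusted p = 0.0115 to 0.046) was not called without treated replicate 2 or 3 or untreated replicate 1 or 2 or 3.

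Among the enzymes that remove peroxide and repair thiols, 17 of 30 rose and 0 fell, with a median log2 fold change of 0.37. Values below 0 were found for 5 and were not called, the lowest at -1.92 in a glutathione peroxidase or reductase. Transcript models of this list are short, with a median of 3 kb, and with the length trend removed 6 were higher and 1 lower. The number of higher enzymes was also 10 without treated replicate 2, 11 without untreated replicate 1 and 10 without untreated replicate 3. GPX8, a peroxidase of the endoplasmic reticulum, had 351, 393 and 295 normalized counts untreated and 762, 799.6 and 816 treated (log2 fold change 1.20, standard error 0.11, edgeR adjusted p = 2.89e-06; 1.07 with the length trend removed). MSRB1, a selenoprotein that repairs oxidized methionine, went from 245, 303 and 236 to 347, 481 and 509.7 (log2 fold change 0.77, standard error 0.16, edgeR adjusted p = 0.00142), and GPX4, which reduces lipid peroxides, from 2306, 2287 and 2225 to 2918, 3383 and 3722 (log2 fold change 0.56, standard error 0.081, edgeR adjusted p = 0.000126). Both were also called with the length trend removed. The mitochondrial peroxiredoxin PRDX5 (0.53) and thioredoxin TXN (0.45), the member with the highest level per kilobase, rose in the fit as reported and were not called with the trend removed. Catalase rose by 0.34 and SOD1 by 0.39 on the log2 scale, and SOD2 was not called (-0.077; higher, at 0.24, with the length trend removed). MSRB1 (edgeR adjusted p = 0.0106 to 0.0114) was not called without treated replicate 2 or untreated replicate 3. TXN (edgeR adjusted p = 0.0117 to 0.0429) and SOD1 (edgeR adjusted p = 0.0132 to 0.0397) were not called without treated replicate 2 or untreated replicate 1 or 2 or 3. Catalase (edgeR adjusted p = 0.0133 to 0.025) was not called without treated replicate 2 or untreated replicate 2 or 3. Catalase (edgeR adjusted p = 0.0533) and SOD1 (edgeR adjusted p = 0.236) were not called with the length trend removed.

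NRF2 is released from KEAP1 when its cysteines are oxidized and then induces detoxifying genes. Of its pathway 4 of 27 genes rose and 4 fell (3 and 4 with the length trend removed). That is 14.8% each, near the 13.5% higher and 15.9% lower of all genes tested. HMOX1, heme oxygenase, had only 8.40, 13.3 and 12.8 normalized counts untreated and 14.1, 9.06 and 8.41 treated, and the groups overlapped. NQO1 (log2 fold change 0.031), TXNRD1 (-0.11), SRXN1 (-0.11) and GCLC (0.086), target genes often read as signs of NRF2 activity, were not called, with standard errors between 0.066 and 0.16. GCLM, a subunit of the enzyme that limits glutathione synthesis, went from 1839.8, 1771 and 2074 to 1598, 1327 and 1425 (log2 fold change -0.39, standard error 0.087, edgeR adjusted p = 0.00299), and the efflux pump ABCC2 from 541, 593 and 724 to 376, 296 and 309 (log2 fold change -0.92, standard error 0.13, edgeR adjusted p = 0.000126). The rising members were the regulators KEAP1 (0.45) and NFE2L2 (0.22) and the targets TALDO1 (0.34) and FTL (0.33), and the last 2 were not called with the length trend removed. The higher members were 7 without treated replicate 1, 7 without treated replicate 3, 2 without untreated replicate 1, 1 without untreated replicate 2 and 1 without untreated replicate 3. GCLM (edgeR adjusted p = 0.0196 to 0.0245) was not called without treated replicate 2 or untreated replicate 3. NFE2L2 (edgeR adjusted p = 0.0273 to 0.0435) was not called without untreated replicate 1 or 2 or 3. TALDO1 (edgeR adjusted p = 0.0115 to 0.0272) was not called without treated replicate 2 or untreated replicate 1 or 2 or 3. FTL (edgeR adjusted p = 0.0102 to 0.0203) was not called without untreated replicate 2 or 3.

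Metallothioneins bind zinc and are induced by the zinc sensor MTF1. None of the 4 tested ones rose at an adjusted p under 0.01 in edgeR. MT2A, the most abundant per kilobase, had 28791, 30732 and 31074 normalized counts untreated and 16913, 25886 and 25500.4 treated (log2 fold change -0.41, standard error 0.12, edgeR adjusted p = 0.0145), and MT1E fell from 6788, 6065 and 6616 to 3339, 3770.4 and 5083 (log2 fold change -0.68, standard error 0.12, edgeR adjusted p = 0.000436). SLC30A1, the zinc exporter that MTF1 also induces, had 4603, 4982 and 5055 normalized counts untreated and 1510.2, 1658 and 1423 treated, a 3.19-fold fall (log2 fold change -1.67, standard error 0.072, edgeR adjusted p = 1.53e-09), and MTF1 went from 1814, 1672 and 1778 to 1147, 954 and 827 (log2 fold change -0.85, standard error 0.10, edgeR adjusted p = 2.91e-05). The zinc importer SLC39A10, by contrast, rose from 1398, 1533 and 1579.5 to 2228, 1947 and 1979 (log2 fold change 0.45, standard error 0.079, edgeR adjusted p = 0.000544). Of the genes of iron handling, the importer SLC11A2 rose by 0.87 and the transferrin receptor TFRC by 0.37, and IREB2, which encodes an iron regulatory protein, fell by 0.59 on the log2 scale. At the cell surface AQP3, an aquaglyceroporin of keratinocytes that also passes H2O2, went from 4691, 4397 and 3555 to 1776, 2152 and 1616 (log2 fold change -1.19, standard error 0.11, edgeR adjusted p = 2.4e-06). Of the 6 tested genes of the NOX and DUOX enzymes and their partners, which make superoxide or H2O2, DUOX1 (-0.34) and DUOX2 (-0.68) fell and 0 rose. DUOX1 (edgeR adjusted p = 0.0131) was not called without untreated replicate 1. DUOX2 (edgeR adjusted p = 0.0146 to 0.0397) was not called without treated replicate 2 or 3 or untreated replicate 1 or 3. DUOX1 (edgeR adjusted p = 0.0121) and DUOX2 (edgeR adjusted p = 0.0247) were not called with the length trend removed.

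Transcripts of the mitochondrial chromosome, which encodes 13 respiratory chain subunits, took a smaller share after treatment. They took 6.10%, 6.19% and 6.26% of all counts in the untreated libraries and 3.51%, 3.39% and 3.30% in the treated ones, a mean of 6.18% ± 0.079 against 3.40% ± 0.103 (SD, n = 3). The difference of -2.78 points had an exact two-sided permutation p of 0.1, the smallest that 3 against 3 libraries allow. Of the 16 genes tested 13 were lower and 0 higher (edgeR), and with the length trend removed all 16 were lower. These transcripts are short, with a median of 0.869 kb. They were unequal. MT-ND6, a complex I subunit and the only protein gene on the other strand, went from 18871, 19846 and 20069 to 2449.7, 2258 and 2143 normalized counts, 8.58-fold lower (log2 fold change -3.10, standard error 0.07, edgeR adjusted p = 1.49e-12). MT-TP, a tRNA on the same strand, fell by 1.94 on the log2 scale. Among the genes of the main coding strand, the large ribosomal RNA MT-RNR2 fell by 2.09, MT-ND5 by 1.51, MT-CO1 by 1.41 and the small ribosomal RNA MT-RNR1 by 1.03. MT-CO1, a core subunit of cytochrome oxidase, had 462730.0, 468893 and 463306 normalized counts untreated and 176273, 174589 and 172849 treated. By contrast MT-ATP6 (-0.18), MT-ND2 (-0.24) and MT-ND3 (-0.23) were not called. Without strand information, reads of MT-ND6 cannot be told apart from reads antisense to it.

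**Figure D4:**
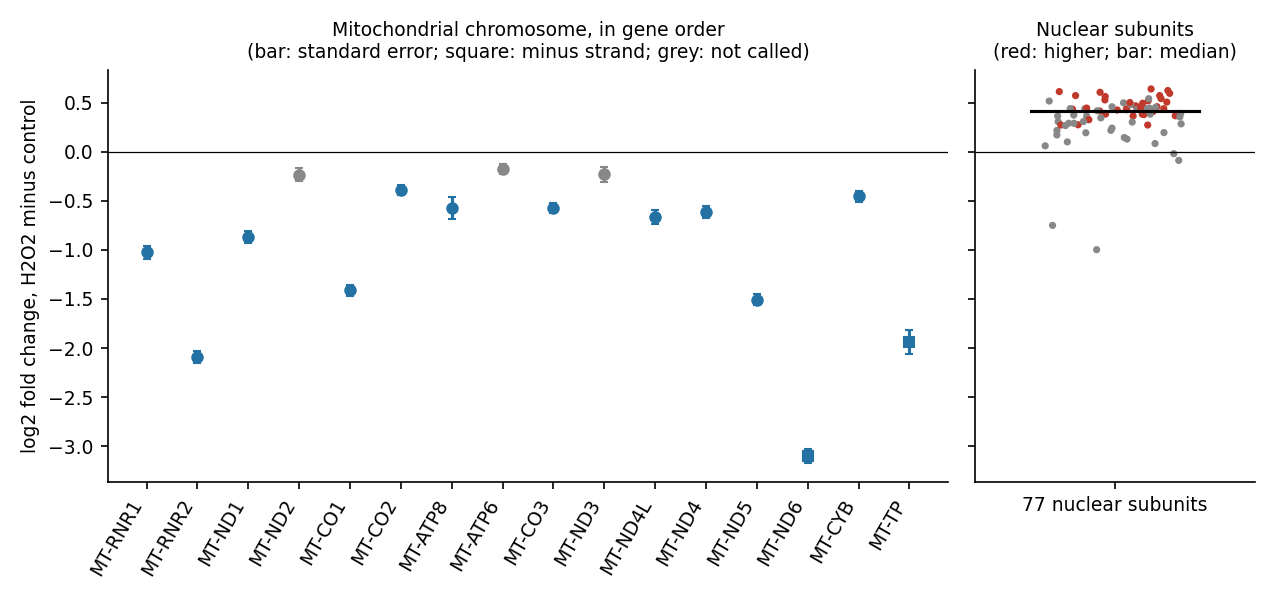
Left, log2 fold change (H2O2 minus control) of each of the 16 tested genes of the mitochondrial chromosome in gene order, with standard error bars, squares for genes on the minus strand and grey for genes not called; right, the same for 77 nuclear genes of the respiratory chain and ATP synthase, with the median as a bar and red for genes called higher. All 16 mitochondrial values lie below 0, from -0.18 to -3.10, and the median of the nuclear subunits is 0.41.

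Among the nuclear genes for subunits of the same complexes no fall was called. Of 77, 35 rose and 0 fell in edgeR (4 values were below 0 and not called, the lowest that of NDUFV2 at -0.999), and the median log2 fold change was 0.41. Examples are NDUFB11 of complex I (0.64) and UQCR10 of complex III (0.62). ATP5F1B, the member with the highest level per kilobase, was not called (0.22). These are short genes, and with the length trend removed 20 were higher and 0 lower. The number of higher subunits was 54 without treated replicate 1, 21 without treated replicate 2, 17 without untreated replicate 1, 17 without untreated replicate 2 and 10 without untreated replicate 3. Factors for expression of the mitochondrial chromosome went both ways, 8 higher and 5 lower of 32 (5 and 4 with the length trend removed). TFB1M, a methyltransferase of the mitochondrial ribosome, rose by 0.64, and the coactivators PPRC1 (-0.43) and PPARGC1B (-0.39) and the polymerase POLG (-0.39) fell. The higher factors numbered 5 without treated replicate 2, 4 without untreated replicate 1, 4 without untreated replicate 2 and 2 without untreated replicate 3, and the lower ones 3 without treated replicate 2, 3 without untreated replicate 1, 2 without untreated replicate 2 and 2 without untreated replicate 3. NDUFB11 (edgeR adjusted p = 0.0103) was not called without untreated replicate 3. PPARGC1B (edgeR adjusted p = 0.0147 to 0.0282) was not called without treated replicate 2 or 3 or untreated replicate 1 or 2 or 3. PPARGC1B (edgeR adjusted p = 0.234) was not called with the length trend removed.

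Targets of p53 were mixed: 8 of 26 rose and 3 fell (6 and 2 with the length trend removed). BBC3, the BH3-only protein PUMA, went from 29.8, 34.3 and 40.3 to 108, 112 and 135 normalized counts (log2 fold change 1.77, standard error 0.24, edgeR adjusted p = 6.34e-05), and PMAIP1, the BH3-only protein NOXA, from 1168, 1085 and 1154 to 2317, 2612 and 2779.7 (log2 fold change 1.18, standard error 0.08, edgeR adjusted p = 1.48e-07). BTG2 rose by 0.93 and GADD45A by 0.81. CDKN1A, the cell cycle inhibitor p21 and the member with the highest level per kilobase, had 10904, 10250.3 and 10575 normalized counts untreated and 10129.5, 11879 and 11892 treated and was not called (log2 fold change 0.10, standard error 0.07, edgeR adjusted p = 0.287). MDM2, which degrades p53, fell by 0.38 on the log2 scale, ZMAT3 by 0.40, and TIGAR, a regulator of sugar phosphates, by 1.04. The lower members numbered 1 without treated replicate 2, 0 without untreated replicate 2 and 0 without untreated replicate 3. The GADD45 stress sensors all rose (3 of 4 with the length trend removed). Without treated replicate 2 or untreated replicate 2 or 3, 3 of the 4 were higher. GADD45G had 8.40, 16.6 and 5.90 normalized counts untreated and 145, 262 and 331 treated (log2 fold change 4.60, standard error 0.37, edgeR adjusted p = 7.36e-07), and GADD45B went from 743, 583 and 609 to 1302, 1864 and 1719 (log2 fold change 1.33, standard error 0.13, edgeR adjusted p = 3.57e-06). MDM2 (edgeR adjusted p = 0.0165 to 0.0246) and TIGAR (edgeR adjusted p = 0.0129 to 0.015) were not called without treated replicate 2 or untreated replicate 2 or 3. ZMAT3 (edgeR adjusted p = 0.0123 to 0.013) was not called without untreated replicate 2 or 3. MDM2 (edgeR adjusted p = 0.269) and ZMAT3 (edgeR adjusted p = 0.0324) were not called with the length trend removed.

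In the BCL2 family, which decides on permeabilization of mitochondria, 6 of 14 rose and 1 fell (4 and 2 with the length trend removed). Besides BBC3 and PMAIP1, these were the short-lived survival factor MCL1, from 23933, 23758 and 24266 to 40808, 35506 and 37786 normalized counts (log2 fold change 0.67, standard error 0.063, edgeR adjusted p = 3.08e-06), the effectors BAX (0.46) and BOK (0.40), and BID (0.30). BAX, BOK and BID were not called with the length trend removed. The survival factor BCL2L2 fell by 0.47, and BCL2L1 was not called (0.17). Without treated replicate 1, 2 members were lower. BOK (edgeR adjusted p = 0.0107 to 0.0117) was not called without treated replicate 2 or untreated replicate 1 or 3. BID (edgeR adjusted p = 0.0193 to 0.0448) was not called without treated replicate 2 or 3 or untreated replicate 1 or 2 or 3.

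Base excision repair, the main route for oxidized bases, had 8 higher and 1 lower of 24 genes. With the length trend removed, 4 were higher and 0 lower. The glycosylases NTHL1 and OGG1, which cut out oxidized pyrimidines and 8-oxoguanine, went from 321, 343 and 316 to 485, 527 and 596 (log2 fold change 0.72, standard error 0.11, edgeR adjusted p = 0.00025) and from 274, 259 and 225 to 378, 338 and 354 (log2 fold change 0.50, standard error 0.13, edgeR adjusted p = 0.0063). NEIL1 had a value of -0.53 (edgeR adjusted p = 0.00663), which was not called with the trend removed. The number of higher genes was 3 without untreated replicate 1, 5 without untreated replicate 2 and 5 without untreated replicate 3. Of 27 genes for repair of double-strand breaks and crosslinks 5 rose, led by FANCE (0.75), and 7 fell (6 and 3 with the length trend removed), led by BRIP1 (-0.67) and ATM (-0.48). The falling ones were 3 without treated replicate 2, 2 without untreated replicate 1, 3 without untreated replicate 2 and 3 without untreated replicate 3. OGG1 (edgeR adjusted p = 0.0122 to 0.0345) and NEIL1 (edgeR adjusted p = 0.0105 to 0.0443) were not called without treated replicate 1 or 2 or untreated replicate 1 or 2 or 3. ATM (edgeR adjusted p = 0.0107 to 0.0162) was not called without untreated replicate 1 or 3. ATM (edgeR adjusted p = 0.453) was not called with the length trend removed.

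Of the mitosis list, 23 of 32 were higher and 1 lower, with a median log2 fold change of 0.46, and with the length trend removed 20 and 0. Of 11 cyclins and kinases 10 rose. AURKA, a kinase of the spindle poles, had 1515, 1747 and 1626 normalized counts untreated and 2795, 2667 and 3166 treated (log2 fold change 0.82, standard error 0.081, edgeR adjusted p = 4.17e-06). CCNB1, the mitotic cyclin, rose by 0.71 and PLK1 by 0.74. The kinesin KIF20A went from 851, 895 and 919.6 to 1611, 1639 and 1624 (log2 fold change 0.87, standard error 0.074, edgeR adjusted p = 1.16e-06), the centromeric histone CENPA from 257, 263 and 268 to 483, 451 and 542 (log2 fold change 0.91, standard error 0.12, edgeR adjusted p = 4.31e-05) and HMMR from 1387, 1315 and 1383 to 2362, 2309 and 2706 (log2 fold change 0.85, standard error 0.077, edgeR adjusted p = 1.95e-06). CDC20, which starts the exit from mitosis and has the highest level per kilobase, rose from 6078, 6000.1 and 6056 to 8029, 8596 and 9448 (log2 fold change 0.52, standard error 0.066, edgeR adjusted p = 3.73e-05). MKI67, the proliferation marker with a long transcript, fell by 0.39 (-0.14 with the length trend removed, not called). In these bulk libraries more cells in mitosis and more RNA per cell cannot be told apart.

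Of the 33 genes of DNA replication and entry into S phase 14 rose and 2 fell, and with the length trend removed 6 and 2. E2F1, the factor that drives this program, went from 1087, 1044 and 1276 to 1978, 2231 and 2050.3 normalized counts (log2 fold change 0.88, standard error 0.088, edgeR adjusted p = 4.83e-06), and CDT1, which licenses origins, from 1366, 1539.9 and 1561 to 2377, 2743 and 2327 (log2 fold change 0.74, standard error 0.083, edgeR adjusted p = 1.35e-05). POLE, the leading strand polymerase, went from 5221, 5326 and 5816 to 3731, 3564 and 3061 (log2 fold change -0.66, standard error 0.077, edgeR adjusted p = 1.78e-05), and RRM2, a subunit of ribonucleotide reductase, fell by 0.37. The higher genes numbered 6 without untreated replicate 1 and 7 without untreated replicate 2.

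Most junction genes of keratinocytes were lower. Of 22 genes of desmosomes, hemidesmosomes and an epidermal laminin, 17 were lower and 0 higher in edgeR, all 22 fitted values were below 0, and the median log2 fold change was -0.51. With the length trend removed 17 were lower and 1 higher, and when each library was left out in turn 16 or 17 were lower. With library sizes in place of TMM 17 were lower. All 6 desmosomal cadherins fell, with log2 fold changes from -0.96 (DSC1) to -0.29 (DSG2). DSP, the plaque protein that ties them to keratin filaments, had 110250.0, 102260.0 and 103444 normalized counts untreated and 60241, 55198 and 49886 treated (log2 fold change -0.93, standard error 0.071, edgeR adjusted p = 4.02e-07), and JUP (-0.053), PKP3 (-0.051) and PERP (-0.044) were not called. PLEC, the plakin of hemidesmosomes, went from 82798, 82505 and 89338 to 31204, 31073 and 24226 (log2 fold change -1.56, standard error 0.088, edgeR adjusted p = 2.81e-08), and COL17A1 fell by 0.48. Among the laminin chains LAMA3 fell most, from 165487, 161400.0 and 177816 to 82911, 80072 and 79094 (log2 fold change -1.06, standard error 0.059, edgeR adjusted p = 2.44e-08), a loss from 4495 to 2231 CPM that is among the 5 largest of any gene. ITGB4 (-0.038) was not called. DSG2 (edgeR adjusted p = 0.0103 to 0.0189) was not called without untreated replicate 1 or 2 or 3.

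**Figure D5:**
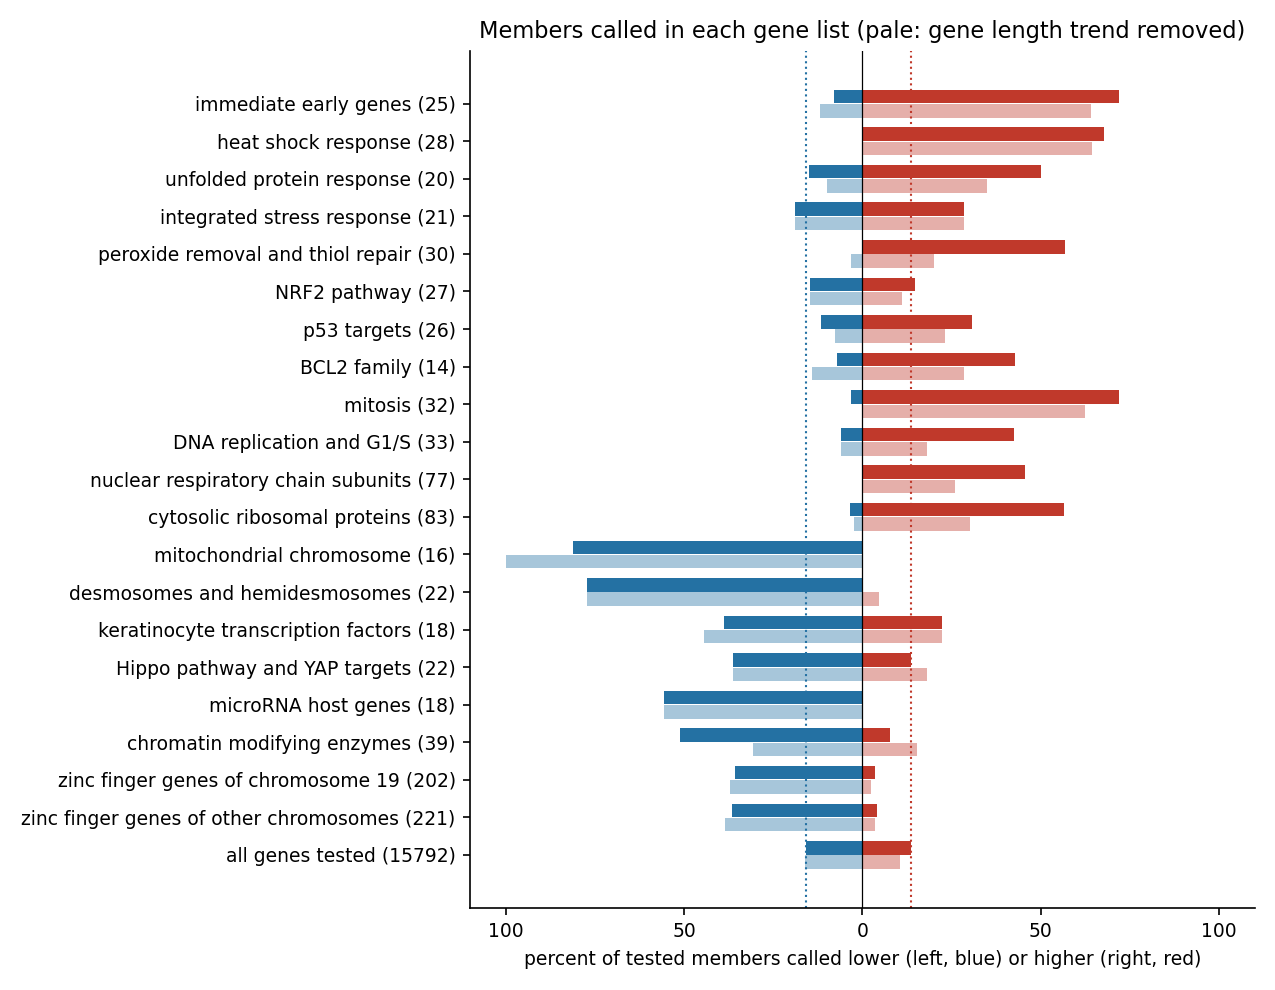
Percent of the tested members of each gene list called lower (blue, left) or higher (red, right), in the fit as reported (dark) and with the length trend removed (pale), with the number tested in brackets and the shares over all genes as dotted lines. Immediate early genes, heat shock genes and mitosis reach furthest to the right and the mitochondrial chromosome, desmosomes and microRNA host genes furthest to the left.

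Of 17 tested genes of the cornified envelope, FLG and IVL fell and 0 rose in edgeR, with a median log2 fold change of 0.03. Taking out the length trend gave 5 lower and 0 higher, with a median of -0.28, and without untreated replicate 1 a single gene was higher. FLG, filaggrin, had 19235, 17286 and 22483 normalized counts untreated and 5446, 4722 and 4143 treated, 4.12-fold lower (log2 fold change -2.04, standard error 0.11, edgeR adjusted p = 1.13e-08), and IVL, involucrin, went from 1225, 1254 and 1027 to 479, 499 and 498 (log2 fold change -1.25, standard error 0.10, edgeR adjusted p = 4.95e-07). SPRR1B, the most abundant per kilobase, was not called (0.14). Of 22 keratins 4 rose (18.2%) and 3 fell (13.6%), near the shares of all genes tested (13.5% and 15.9%). KRT14, the basal keratin, rose by 0.30 on the log2 scale and with its partner KRT5 (0.17, not called) was among the 5 largest gains in CPM. KRT15, a basal keratin linked to stem cells, went from 3169, 2761 and 2205 to 1390.2, 1486 and 990.0 (log2 fold change -1.08, standard error 0.14, edgeR adjusted p = 5.51e-05). The higher keratins numbered 0 without treated replicate 2, 1 without untreated replicate 1, 0 without untreated replicate 2 and 0 without untreated replicate 3, the lower ones 1 without untreated replicate 2 and 5 without untreated replicate 3, and with the length trend removed 0 were higher and 7 lower. Among 18 keratinocyte transcription factors 4 rose and 7 fell (4 and 8 with the length trend removed). TP63, the master regulator of stratified epithelia, went from 19640.1, 18832 and 18362 to 12686, 12254 and 11124 (log2 fold change -0.66, standard error 0.065, edgeR adjusted p = 4.24e-06), SOX9 from 9693, 10412 and 11280.0 to 6344, 6075 and 4942 (log2 fold change -0.85, standard error 0.088, edgeR adjusted p = 6.51e-06) and PRDM1, the factor BLIMP1, from 134, 79.6 and 144 to 55.1, 49.8 and 27.3 (log2 fold change -1.44, standard error 0.30, edgeR adjusted p = 0.00165). Without untreated replicate 3, 2 of these factors were higher. KRT14 (edgeR adjusted p = 0.011 to 0.0155) was not called without treated replicate 2 or untreated replicate 2 or 3. PRDM1 (edgeR adjusted p = 0.0135) was not called without untreated replicate 3. KRT14 (edgeR adjusted p = 0.579) was not called with the length trend removed.

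In the EGF receptor system, whose ligands drive keratinocyte growth and migration, HBEGF had 1264, 1226 and 1495 normalized counts untreated and 5271, 5913 and 6123 treated (log2 fold change 2.12, standard error 0.085, edgeR adjusted p = 6.51e-10), and AREG rose from 20055, 19935 and 22079 to 29164, 32903 and 37960.0 (log2 fold change 0.69, standard error 0.085, edgeR adjusted p = 3.22e-05). TGFA went the other way, from 8544, 8639.6 and 8673 to 4409.6, 4152 and 4109 (log2 fold change -1.03, standard error 0.058, edgeR adjusted p = 2.62e-08), as did EREG, from 4183, 4726 and 5283 to 2733, 2525 and 2249 (log2 fold change -0.92, standard error 0.09, edgeR adjusted p = 3.89e-06). The receptor EGFR itself, at 70791, 67683 and 70955 normalized counts untreated and 48485, 44754 and 41442 treated, fell by 0.64 on the log2 scale (standard error 0.066). Of the 11 genes 3 rose and 3 fell (3 and 4 with the length trend removed), and both counts were 3 in every fit that left out a library.

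Among TGF-β and BMP genes 8 of 28 rose and 8 fell (7 and 7 with the length trend removed). All 4 ID genes, the common targets of BMP signals, rose, ID2 by 2.91, ID1 by 1.295, ID4 by 1.13 and ID3 by 0.70 on the log2 scale, as did the inhibitory SMAD6 (1.16). Of the 5 target genes tested in this list 4 were higher and 1 lower, the last with a log2 fold change of -1.59. INHBA, the activin A subunit, went from 16241, 16748 and 18328 to 7950.1, 7163 and 6727 normalized counts (log2 fold change -1.23, standard error 0.073, edgeR adjusted p = 4.27e-08). SMAD3 fell by 0.59. The number of rising genes was 5 without treated replicate 2 and 5 without untreated replicate 1. In the Hippo pathway 3 of 22 rose and 8 fell (4 and 8 with the length trend removed). The shares were 13.6% and 36.4%, against 13.5% and 15.9% of all genes tested. Of the pathway's 8 target genes 2 rose and 3 fell. CYR61 (CCN1) and CTGF (CCN2) rose from 1521, 1624 and 1764 to 5470.1, 5059 and 4979 (log2 fold change 1.66, standard error 0.071, edgeR adjusted p = 1.45e-09) and from 291, 316 and 357 to 721, 699.9 and 739 (log2 fold change 1.17, standard error 0.11, edgeR adjusted p = 2.2e-06). The coactivator WWTR1 (TAZ) fell by 0.91, its partner TEAD1 by 0.77 and the target AMOTL1 by 0.88. Without treated replicate 3, 5 Hippo genes were higher. ID4 (edgeR adjusted p = 0.0155 to 0.033) was not called without treated replicate 1 or 2 or untreated replicate 1 or 3. ID4 (edgeR adjusted p = 0.0266) was not called with the length trend removed.

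Notch genes had 3 rises and 6 falls among 21 (3 and 6 with the length trend removed). These are 14.3% and 28.6%, against 13.5% and 15.9% of all genes tested. HES1, the main target, went from 481, 586 and 541 to 1734, 2433 and 2407 (log2 fold change 2.03, standard error 0.13, edgeR adjusted p = 5.65e-08) and NRARP rose by 0.86. The ligand JAG1 went from 28391, 28407 and 31346 to 15172, 14284 and 12893 (log2 fold change -1.06, standard error 0.072, edgeR adjusted p = 1.34e-07), and the receptors NOTCH2 and NOTCH1 fell by 0.70 and 0.46. NOTCH1 (edgeR adjusted p = 0.0106) was not called without untreated replicate 3.

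Of 22 cytokines and chemokines over the count limit 4 rose and 4 fell (3 and 4 with the length trend removed). That is 18.2% each, near the 13.5% higher and 15.9% lower of all genes tested. CXCL8, which attracts neutrophils, had 218, 217 and 227 normalized counts untreated and 440.0, 538 and 677 treated (log2 fold change 1.32, standard error 0.15, edgeR adjusted p = 1.39e-05), and IL1A, an alarmin of keratinocytes, went from 1086, 913 and 1095 to 1791, 2022 and 2283 (log2 fold change 0.98, standard error 0.10, edgeR adjusted p = 5.74e-06). CXCL1 rose by 0.85 and IL18 by 0.32. The antagonists IL1RN and IL36RN fell, from 4857, 4395 and 3902 to 2654, 2582 and 2503 (log2 fold change -0.77, standard error 0.077, edgeR adjusted p = 5.01e-06) and from 58.8, 28.8 and 53.1 to 15.1, 12.5 and 7.36 (log2 fold change -2.01, standard error 0.43, edgeR adjusted p = 0.00193), and so did IL24 (-1.23) and IL11 (-0.59). A single cytokine was lower without untreated replicate 3. IL6, TNF, CCL20 and IL36G were below the count limit. In the NF-κB pathway 2 of 16 genes fell and 1 rose (4 and 0 with the length trend removed). TNFAIP3, the feedback inhibitor A20, went from 4875, 5119.6 and 4880.2 to 3009.7, 2624 and 2499 (log2 fold change -0.87, standard error 0.072, edgeR adjusted p = 8.59e-07) and REL fell by 0.82, while BIRC2 rose by 0.27. IL18 (edgeR adjusted p = 0.0128 to 0.0405) and BIRC2 (edgeR adjusted p = 0.0148 to 0.0295) were not called without treated replicate 2 or untreated replicate 1 or 2 or 3. IL36RN (edgeR adjusted p = 0.0129 to 0.0146) was not called without untreated replicate 1 or 3. IL24 (edgeR adjusted p = 0.0142) was not called without untreated replicate 3. IL11 (edgeR adjusted p = 0.0135 to 0.0175) was not called without treated replicate 2 or untreated replicate 3. IL18 (edgeR adjusted p = 0.238) and BIRC2 (edgeR adjusted p = 0.0183) were not called with the length trend removed.

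Of the glucocorticoid list most genes were higher, in cells whose medium held hydrocortisone. Of 8 genes 5 rose, and the receptor NR3C1 was the 1 that fell (6 and 1 with the length trend removed), from 9345, 8767 and 9309 to 5591, 5528 and 4826 (log2 fold change -0.78, standard error 0.068, edgeR adjusted p = 1.34e-06). TSC22D3, the protein GILZ, went from 1191, 1173 and 1219 to 2896, 2436 and 2915 (log2 fold change 1.20, standard error 0.08, edgeR adjusted p = 1.22e-07), KLF9 from 43.5, 46.5 and 29.5 to 112, 97.4 and 106 (log2 fold change 1.40, standard error 0.25, edgeR adjusted p = 0.000537) and SGK1 from 3822, 3884 and 4841 to 6997, 6539 and 7213 (log2 fold change 0.73, standard error 0.085, edgeR adjusted p = 1.83e-05). DUSP1 and PER1, the remaining rises, also belong to other lists, and FKBP5, often used as the most specific target, had 4177, 3993 and 4343 and 4333, 4271 and 4123 normalized counts and was not called (0.024). Of 17 clock genes 7 rose and 6 fell (6 and 6 with the length trend removed). PER1 rose from 2844, 3042 and 3403 to 5792, 6148 and 5416 (log2 fold change 0.90, standard error 0.075, edgeR adjusted p = 8.46e-07) and NR1D1, the repressor REV-ERBα, from 786, 759 and 849 to 1801, 2173 and 2006 (log2 fold change 1.32, standard error 0.087, edgeR adjusted p = 1.13e-07). CRY1 went from 1529, 1466 and 1499.9 to 799, 724 and 729 (log2 fold change -0.997, standard error 0.079, edgeR adjusted p = 5.94e-07), RORA, which opposes NR1D1, from 208, 184 and 205 to 58.4, 58.9 and 84.1 (log2 fold change -1.56, standard error 0.19, edgeR adjusted p = 3.03e-05), and ARNTL, the activator BMAL1, fell by 0.67.

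Hypoxia genes did not move together: 5 of 18 rose and 4 fell (6 and 3 with the length trend removed), ANKRD37 by 1.85 and ANGPTL4 by -1.77 on the log2 scale at the ends. In cholesterol synthesis 10 of 26 genes rose, HSD17B7 most (0.69), and 3 fell (10 and 3 with the length trend removed). Without untreated replicate 1 the rising ones numbered 6, and without treated replicate 2 or any untreated replicate at most 1 was lower. The stress granule list, core proteins such as G3BP1 and the eIF2α kinases, had 1 rise, FXR1 (0.42), and 1 fall, EIF2AK2 (-0.28), among 17 genes (4 and 0 with the length trend removed). That is 5.88% each, below the 13.5% higher and 15.9% lower of all genes tested. A second gene of this list was higher without treated replicate 3. Of the 18 genes for proteolysis at the cell surface 2 rose and 6 fell (1 and 9 with the length trend removed). In the plasminogen system SERPINB2 went from 19752, 18601 and 19012 to 6834, 6695 and 8042 (log2 fold change -1.41, standard error 0.074, edgeR adjusted p = 1.24e-08) and PLAU, the urokinase, from 8504, 8582 and 8897 to 4894, 5015 and 4899 (log2 fold change -0.81, standard error 0.056, edgeR adjusted p = 1.72e-07), while its receptor PLAUR rose by 0.44. EIF2AK2 (edgeR adjusted p = 0.0108 to 0.0198) was not called without treated replicate 2 or untreated replicate 1 or 2 or 3. PLAUR (edgeR adjusted p = 0.0131) was not called without untreated replicate 3. EIF2AK2 (edgeR adjusted p = 0.285) was not called with the length trend removed.

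Many primary transcripts that host microRNAs were lower. Of 55 host genes counted, 18 passed the count limit, and of these 10 were lower and 0 higher in edgeR, with a median log2 fold change of -0.79 and the same counts with the length trend removed. MIR17HG, the host of the miR-17 to miR-92a cluster, had 547, 554 and 657 normalized counts untreated and 83.2, 111 and 78.8 treated (log2 fold change -2.69, standard error 0.15, edgeR adjusted p = 3.12e-08). MIR222HG went from 742, 767 and 753 to 114, 99.7 and 216 (log2 fold change -2.39, standard error 0.21, edgeR adjusted p = 1.37e-06) and MIR29B2CHG from 158, 185 and 120.0 to 16.2, 5.66 and 12.6 (log2 fold change -3.72, standard error 0.32, edgeR adjusted p = 1.35e-06). MIR205HG, the most abundant per kilobase and a host active in epithelia, fell by 0.57, and the annotated hairpin of MIR205 within it, where reads come from the unprocessed transcript, from 168, 138 and 168 to 23.8, 22.7 and 10.5 (log2 fold change -3.06, standard error 0.28, edgeR adjusted p = 2.13e-06). MIRLET7BHG (-1.62) and MIR100HG (-1.42), which hold let-7 microRNAs, fell as well. Libraries of polyadenylated RNA do not measure mature microRNAs, and what became of them was not measured.

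One mature arm of each microRNA within the hosts MIR17HG, MIR222HG and MIR29B2CHG is shown by shared seed, bases 2 to 8 in capitals, since a seed sets which mRNAs a microRNA pairs with (RefSeq, GRCh38.p14). Those of MIR17HG lie in chr13:91350618-91351382, plus strand, those of MIR222HG in chrX:45746180-45747094, minus strand, and those of MIR29B2CHG in chr1:207801865-207802513, minus strand.
hsa-miR-17-5p: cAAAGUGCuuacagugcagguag
hsa-miR-20a-5p: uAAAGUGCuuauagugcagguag
hsa-miR-18a-5p: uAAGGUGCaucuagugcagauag
hsa-miR-19a-3p: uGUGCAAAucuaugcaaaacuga
hsa-miR-19b-3p: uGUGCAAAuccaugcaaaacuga
hsa-miR-92a-3p: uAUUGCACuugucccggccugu
hsa-miR-221-3p: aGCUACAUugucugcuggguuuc
hsa-miR-222-3p: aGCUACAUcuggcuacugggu
hsa-miR-29c-3p: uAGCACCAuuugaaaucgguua
hsa-miR-29b-3p: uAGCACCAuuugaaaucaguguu
The pairs miR-17-5p and miR-20a-5p, miR-19a-3p and miR-19b-3p, miR-221-3p and miR-222-3p, and miR-29b-3p and miR-29c-3p each share a seed among those shown, and miR-18a-5p differs from the first pair within it.

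For long non-coding transcripts the shares called stand beside those of all genes, 13.5% higher and 15.9% lower. Among 657 lincRNAs 17 were higher (2.59%) and 106 lower (16.1%), with a median log2 fold change of -0.33. Among 847 antisense genes 8 were higher (0.945%) and 128 lower (15.1%), with a median of -0.40, and in 333 other long non-coding genes 11 were higher (3.3%) and 69 lower (20.7%). After the length trend was taken out, 4 lincRNAs were higher and 140 lower, 5 antisense genes were higher and 159 lower, and 8 other long non-coding genes were higher and 92 lower. Protein-coding genes were balanced in the fit as reported, with 2056 higher and 2063 lower of 12742, but not in every fit. The counts were 1632 and 1969 with the length trend removed and 2784 and 1762 with library sizes in place of TMM. Without untreated replicate 3 they were 1026 and 1466. The non-coding classes hold many genes of low count, and in the tenth of all genes with the lowest counts 6 were higher and 110 lower. The count limit is a mean over both groups, so a gene can pass it through 1 group alone. Of all genes tested, 642 had a mean under 10 normalized counts in the treated libraries, and the same was not counted for the untreated ones. The part of the filter in the falls of these classes was not tested. The lower antisense genes numbered 77 without treated replicate 2 and 80 without untreated replicate 3, and the higher ones 3 without treated replicate 2, 4 without untreated replicate 1, 3 without untreated replicate 2 and 3 without untreated replicate 3. The higher lincRNAs numbered 9 without treated replicate 2, 11 without untreated replicate 1, 8 without untreated replicate 2 and 7 without untreated replicate 3, the higher other long non-coding genes 6 without untreated replicate 1, 6 without untreated replicate 2 and 5 without untreated replicate 3 and the lower ones 43 without untreated replicate 2. The higher protein-coding genes numbered 1264 without treated replicate 2, 1174 without untreated replicate 1, 1139 without untreated replicate 2 and 1026 without untreated replicate 3. AC245060.6, a lincRNA of chromosome 22, went from 128, 144 and 142 to 10.8, 10.2 and 6.31 (log2 fold change -3.90, standard error 0.29, edgeR adjusted p = 2.75e-07) and LUCAT1, an antisense gene known to respond to stress, from 159, 159 and 126 to 16.2, 18.1 and 0 (log2 fold change -3.70, standard error 0.48, edgeR adjusted p = 4.9e-05); its reads cannot be told apart from those of genes it overlaps, as the counting is not stated to use strand. Of the hosts of small nucleolar RNAs 10 of 24 rose and 1 fell (6 and 1 with the length trend removed), SNHG26 from 728, 782 and 859.6 to 1326, 1379.5 and 1488 (log2 fold change 0.83, standard error 0.088, edgeR adjusted p = 8.66e-06), and without any one of the untreated replicates 6 rose.

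Many genes for zinc finger transcription factors were lower. Of 202 on chromosome 19, where clusters of KRAB zinc finger genes lie, 72 were lower and 7 higher, with a median log2 fold change of -0.49, and of 221 elsewhere 81 were lower and 9 higher, with a median of -0.30. The lower shares were 35.6% and 36.7%, against 15.9% of all genes tested, and the higher ones 3.47% and 4.07%, against 13.5%. With the length trend removed 75 and 85 were lower and 5 and 8 higher. ZNF587 went from 641, 658 and 627 to 282, 207 and 199 (log2 fold change -1.48, standard error 0.13, edgeR adjusted p = 1.96e-06), ZNF589 from 1066, 1126 and 1071 to 377, 371 and 400.4 (log2 fold change -1.50, standard error 0.089, edgeR adjusted p = 4.05e-08) and ZNF107 from 377, 372 and 399 to 159, 159.7 and 92.5 (log2 fold change -1.48, standard error 0.18, edgeR adjusted p = 2.8e-05). The exceptions that rose included ZNF367 (1.15), ZNF165 (1.21) and ZFP36, which is an RNA-binding protein that the symbols place in this class. The higher ones on chromosome 19 were 3 without treated replicate 2, 4 without untreated replicate 1, 3 without untreated replicate 2 and 3 without untreated replicate 3. Members of these clusters are similar in sequence, so counts of single genes may be split between them. The BTB zinc finger family had 16 lower and 1 higher of 39.

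Of 39 histone modifying enzymes and bromodomain proteins 20 were lower and 3 higher. Their transcripts are long, with a median of 10.3 kb, and with the length trend removed 12 were lower and 6 higher. KDM7A, a histone demethylase, went from 987, 1011 and 1033 to 449, 344 and 343 (log2 fold change -1.42, standard error 0.11, edgeR adjusted p = 5.54e-07; -1.26 with the trend removed) and KMT2D, a methyltransferase of enhancers, from 6254, 6079 and 6326 to 3026, 2495 and 2063 (log2 fold change -1.299, standard error 0.10, edgeR adjusted p = 5.94e-07; -0.94 with the trend removed). EP300, the acetyltransferase p300, fell by 0.74. Without untreated replicate 2, 1 was higher.

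The genes of the ribosome, the proteasome and the mitochondrial ribosome are short, and their rises, where called, were small. Of 83 cytosolic ribosomal protein genes 47 were higher and 3 lower, with a median log2 fold change of 0.46. The median was 0.26 and 25 were higher with the length trend removed. RPS28 and RPS29 rose by 0.72 and 0.76, and RPL7A, the highest per kilobase, was not called (0.37). The fall of RPS10 (-1.17) is uncertain, since near-identical or overlapping copies can take its reads. The higher ribosomal protein genes were 71 without treated replicate 1, 26 without treated replicate 2, 26 without untreated replicate 1, 16 without untreated replicate 2 and 9 without untreated replicate 3, and the lower ones 0 without treated replicate 2, 0 without untreated replicate 1 and 0 without untreated replicate 3. Of 78 mitochondrial ribosomal protein genes 39 were higher and 0 lower in edgeR (13 and 1 with the length trend removed), with 23 without treated replicate 2, 20 without untreated replicate 1, 20 without untreated replicate 2 and 12 without untreated replicate 3 higher. A single one was lower without treated replicate 3. Of 47 proteasome subunits 18 were higher, PSMB8 most (0.45), and 1 lower, PSME4 (-0.70), and with the length trend removed 5 and 1. The higher proteasome genes were 6 without treated replicate 2, 7 without untreated replicate 1, 4 without untreated replicate 2 and 2 without untreated replicate 3. Of 65 translation factors 14 were higher and 7 lower (10 and 6 with the length trend removed). The rises numbered 9 without treated replicate 2, 8 without untreated replicate 1, 8 without untreated replicate 2 and 5 without untreated replicate 3, and the falls 4 without untreated replicate 2 and 4 without untreated replicate 3. EIF5 went from 16772, 17375 and 18500.1 to 7804, 7741 and 7979.6 (log2 fold change -1.16, standard error 0.06, edgeR adjusted p = 1.14e-08) and EIF1, which sets the stringency of start codon choice, from 13672, 13799 and 13839 to 20272, 22497 and 23922 (log2 fold change 0.69, standard error 0.067, edgeR adjusted p = 3.49e-06). RPS29 (edgeR adjusted p = 0.0141 to 0.0221) was not called without untreated replicate 2 or 3. RPS10 (edgeR adjusted p = 0.0104 to 0.0331) was not called without treated replicate 2 or 3 or untreated replicate 1 or 3. PSMB8 (edgeR adjusted p = 0.0192 to 0.0396) was not called without treated replicate 2 or 3 or untreated replicate 1 or 2 or 3. PSMB8 (edgeR adjusted p = 0.067) was not called with the length trend removed.

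Several lists had calls in both directions or few calls, and over all genes tested 13.5% were higher and 15.9% lower. The shares were 16% and 15.5% for solute carriers and 14% and 20.9% for TRIM genes. Of 200 solute carriers 32 rose and 31 fell (29 and 31 with the length trend removed), led by SLC45A3 (1.24) and by the sodium and glucose cotransporter SLC5A1 (-1.93) and the phosphate transporter SLC34A3 (-2.29), and the rises numbered 21 without treated replicate 2, 19 without untreated replicate 1, 19 without untreated replicate 2 and 20 without untreated replicate 3. Of 43 TRIM genes, which mostly encode ubiquitin ligases, 6 rose and 9 fell (8 and 6 with the length trend removed), with TRIM5 (0.93) and TRIM66 (-1.51) at the ends, and the counts were 3 without treated replicate 2, 3 without untreated replicate 1 and 3 without untreated replicate 2 for higher genes and 5 without treated replicate 2, 3 without untreated replicate 1 and 4 without untreated replicate 3 for lower ones. Of 25 HOX genes 2 rose, among them HOXB4 (1.83), and 3 fell (1 and 6 with the length trend removed), among them HOXD9 (-1.16), and the higher ones were 1 without treated replicate 1, 1 without treated replicate 2, 0 without untreated replicate 1 and 0 without untreated replicate 3. In the actin cytoskeleton and among targets of SRF 4 of 21 rose, PFN1 and CFL1 by 0.50 and 0.41, and 3 fell (3 and 1 with the length trend removed), FHL2 by 0.74, FLNA by 0.38 and VCL by 0.25. The rises numbered 2 without treated replicate 2 and 2 without untreated replicate 2, and the falls 1 without untreated replicate 3. Of 17 SR splicing proteins and CLK kinases 2 rose (1 without treated replicate 2, 1 without untreated replicate 1 and 1 without untreated replicate 2) and 2 fell (4 and 3 with the length trend removed), the kinases CLK4 (-0.68) and CLK2 (-0.46). SLC34A3 (edgeR adjusted p = 0.0121 to 0.0168) was not called without treated replicate 1 or 3 or untreated replicate 1 or 2 or 3. HOXB4 (edgeR adjusted p = 0.0214 to 0.0265) was not called without treated replicate 1 or 2 or untreated replicate 1 or 3. FLNA (edgeR adjusted p = 0.0109) was not called without untreated replicate 3. VCL (edgeR adjusted p = 0.0143 to 0.037) was not called without untreated replicate 1 or 2 or 3. FLNA (edgeR adjusted p = 0.0347) and VCL (edgeR adjusted p = 0.341) were not called with the length trend removed.

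In glycolysis and the pentose phosphate pathway 9 of 27 genes rose, PGLS, the lactonase that follows the first NADPH-making step, most (0.53), and 1 fell (7 and 1 with the length trend removed), HK2 (-0.23). The higher ones numbered 3 without treated replicate 2, 2 without untreated replicate 1, 1 without untreated replicate 2 and 1 without untreated replicate 3. Of 37 aminoacyl-tRNA synthetases 11 rose, FARSA most (0.50), and 1 fell (8 and 2 with the length trend removed), PARS2 (-0.73). Here the rises numbered 4 without treated replicate 2, 3 without untreated replicate 1, 5 without untreated replicate 2 and 4 without untreated replicate 3, and the falls 2 without treated replicate 1 and 2 without treated replicate 3. Of 23 genes of autophagy and lysosomes 4 rose, ATG5 most (0.50), and ATG16L1 fell (-0.49), and with the length trend removed 6 were higher and 1 lower. The rises in this list numbered 2 without untreated replicate 3. Of 23 genes of the interferon response and antigen presentation 2 rose, among them B2M (0.40), and the peptide transporter TAP2 fell (-0.30), and the counts were the same with the length trend removed. Their shares, 8.7% and 4.35%, were below those of all genes tested, 13.5% and 15.9%. HK2 (edgeR adjusted p = 0.0101 to 0.0576) was not called without treated replicate 1 or 3 or untreated replicate 1 or 2 or 3. B2M (edgeR adjusted p = 0.0111 to 0.0238) was not called without untreated replicate 1 or 2 or 3. TAP2 (edgeR adjusted p = 0.0207 to 0.0481) was not called without treated replicate 2 or untreated replicate 1 or 3.

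Among protein-coding genes outside these groups with at least 100 normalized counts in one condition, the largest falls were of several kinds. AKAP12, a scaffold for kinases, had 6168, 5628 and 6822 normalized counts untreated and 885, 979 and 879 treated, 6.79-fold lower (log2 fold change -2.76, standard error 0.082, edgeR adjusted p = 3.26e-11). CYP24A1, the enzyme that breaks down vitamin D hormone, went from 4356, 4079 and 4163 to 719, 774 and 649 (log2 fold change -2.56, standard error 0.077, edgeR adjusted p = 3.27e-11) and IL1RL1, the receptor of IL-33, from 3667, 3727 and 3574 to 535, 675 and 663 (log2 fold change -2.55, standard error 0.088, edgeR adjusted p = 1.43e-10). Of lower abundance were IGFN1, from 129.8, 107 and 126 to 10.8, 9.06 and 11.6 (log2 fold change -3.51, standard error 0.28, edgeR adjusted p = 6.09e-07), PAPPA, a protease of IGF-binding proteins, from 133, 111 and 91.5 to 17.3, 14.7 and 12.6 (log2 fold change -2.90, standard error 0.29, edgeR adjusted p = 4.34e-06), and STC1, stanniocalcin, from 277, 246 and 204 to 25.9, 19.3 and 53.6 (log2 fold change -2.87, standard error 0.28, edgeR adjusted p = 4.58e-06). In CPM AHNAK, a giant scaffold protein, fell from 4279 to 1802 and THBS1, thrombospondin, from 8367 to 6062, both among the 5 largest losses with MT-RNR2, MT-CO1 and LAMA3. AKAP12, CYP24A1, IL1RL1, IGFN1, PAPPA and STC1 were chosen by a rule that required no overlap of the groups. The groups also did not overlap in the genes of the CPM ranking, as in 55.7% of all genes tested.

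To see where HaCaT differs, its response was set against that of TIGK by a test of the difference of the log2 fold changes in a fit of all 12 libraries and 16618 genes. Of these 881 differed (5.3%), with a higher value in HaCaT for 496 (2.98%) and a lower one for 385 (2.32%). The count of higher values was 211 without HaCaT treated replicate 2, 294 and 300 without HaCaT untreated replicate 1 and 2, 186 and 191 without TIGK treated replicate 2 and 3, and 222 without TIGK untreated replicate 2. That of lower values was 704 without HaCaT treated replicate 1. Among the 25 immediate early genes 5 were higher in HaCaT and 10 lower. FOS and EGR1 rose more in HaCaT, by 2.70 (standard error 0.22, edgeR adjusted p = 1.69e-07) and 2.05 (standard error 0.15, edgeR adjusted p = 4.91e-08), and so did ATF3, by 1.98 (standard error 0.13, edgeR adjusted p = 7.72e-09). EGR3 rose less, by 3.09 on the log2 scale, and FOSL1 (-1.16) and NR4A3 (-1.64) also had lower values in HaCaT. Of the 28 heat shock genes 1 differed, HSPA1B (0.84). Of the 16 mitochondrial genes 7 had a higher value in HaCaT and 0 a lower one at an adjusted p under 0.01 in edgeR, MT-ND5 by 1.84 and MT-CO1 by 0.94, which means that they fell less. In TIGK these genes took 3.39% ± 0.0607 of counts untreated and 1.43% ± 0.0614 treated (SD, n = 3). Of the 22 junction genes 5 had a lower value in HaCaT and 0 a higher one, among them DSP (-0.46) and LAMA3 (-0.35). Cytokines differed in CXCL1 (2.20) and CXCL8 (1.61), which were higher in HaCaT, and IL36RN (-2.59), which was lower. SOX9 (-1.42), PRDM1 (-2.26) and ZNF750 (-1.52) were among 6 of the 18 keratinocyte transcription factors with a lower value in HaCaT, and in this list 0 had a higher one. The groups share no library, and the length slope was between -0.111 and -0.118 in treated TIGK libraries, less steep than in HaCaT. Treated HaCaT replicate 1, at -0.129, was close to those values, and replicates 2 and 3 were at -0.192 and -0.256. The slope was between -0.062 and 0.089 in untreated TIGK libraries. The difference between the lines was not tested with the length trend removed.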

How the data were processed

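Total RNA of HaCaT and TIGK cells was extracted with TRIzol, and libraries of polyadenylated RNA were sequenced as 150-base read pairs. The authors deposited a table of raw read counts per gene, with the length of each gene's transcript model, on GRCh38. Per the labels' protocols and the submitters' processing notes, reads were aligned with HISAT2 (2.0.5 and 2.0.0 are both named), assembled with StringTie and counted with featureCounts 1.5.0-p3, and the strand setting is not given in the sources used here. The authors' tables of fold changes and p-values were not used.

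From the 6 HaCaT libraries, genes with a mean count of at least 10 were tested with edgeR 4.0.16 in R 4.3.3 (TMM scaling, quasi-likelihood test, threshold 0.01). The difference of responses between the lines was tested in a fit of all 12 libraries, and the mitochondrial share by an exact two-sided permutation test. Alternatives were DESeq2 1.42.0, other scalings, filters and thresholds, a replicate block and leaving out each library. Taking out a trend on transcript model length (lowess, span 0.3) was added after the data were seen. On simulated counts for the HaCaT comparison with 200 of 15792 genes changed, the test recovered 64.2% of 1.5-fold, 58.2% of 2-fold and 90.9% of 4-fold changes, with 4 false calls. The simulated counts held no length trend and a smaller share of changed genes than the 29.5% called in the data. The number of false calls in the data can therefore not be read from them. Sequences came from RefSeq tables for GRCh38.p14. Python 3.11.15, pandas 2.3.3 and matplotlib 3.10.9 were used, and 27 gene names that a spreadsheet had turned into dates were restored by Ensembl identifier.

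The members and the gene lists were chosen with earlier results of these data known. Named are, among called genes with at least 100 normalized counts in one group and no overlap, the 10 protein-coding genes with the largest rise and fall and the 5 genes of other biotypes, the 5 largest gains and losses in CPM, in each list up to 4 called members in each direction and the highest per kilobase (any member where 15 or fewer were tested), the 5 largest differences between the lines in each direction, and cell type markers. Some genes that this rule selects are not reported here. Chosen outside this rule, after their values were seen, were BAG3, CAT, CCNB1, DNAJA1, DNAJB1, DSG2, G3BP1, GCLC, HSF1, HSP90AA1, HSPB1, HSPD1, HSPE1, ID3, IER2, JUN, JUNB, JUND, JUP, KLF10, KLF2, KLF4, KLF6, MAFF, MIR100HG, MIRLET7BHG, MT-ATP6, MT-ND2, MT-ND3, MT-RNR1, MYC, NDUFV2, NQO1, NR4A2, PERP, PKP3, PLK1, SOD1, SOD2, SPRY2, SRF, SRXN1 and TXNRD1.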

Additional observations from a re-analysis of the deposited data

Results flagged for a closer look

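The 10 genes below had the largest differences of log2 fold change between HaCaT and TIGK, 5 in each direction, within a selection. Each differed at an adjusted p under 0.01 in edgeR and had a mean of at least 100 normalized counts in its highest group. Its treated and untreated HaCaT libraries also did not overlap, so genes that moved only in TIGK may be missing. GADD45G, a stress sensor, went from 10.3 to 252 normalized counts in HaCaT (log2 fold change 4.63) and from 51.7 to 87.6 in TIGK (0.75), a difference of 3.88 with standard error 0.49 and edgeR adjusted p = 4.08e-05. RASD1, a small GTPase, went from 8.05 to 240.3 normalized counts in HaCaT (log2 fold change 4.83) and from 85.9 to 167 in TIGK (0.96), a difference of 3.87 with standard error 0.43 and edgeR adjusted p = 8.17e-06. ARC, an immediate early gene, went from 9.42 to 146 normalized counts in HaCaT (log2 fold change 3.84) and from 189 to 272 in TIGK (0.53), a difference of 3.31 with standard error 0.40 and edgeR adjusted p = 2.58e-05. In each of these 3 genes the untreated level was lower in HaCaT than in TIGK. SNAI1, a repressor of E-cadherin, went from 3.97 to 50.5 normalized counts in HaCaT (log2 fold change 3.71) and from 85.3 to 148 in TIGK (0.79), a difference of 2.91 with standard error 0.59 and edgeR adjusted p = 0.00335, with an untreated HaCaT library at 0. MARCHF4, a ubiquitin ligase, went from 338 to 573 normalized counts in HaCaT (log2 fold change 0.76) and from 11.4 to 2.68 in TIGK (-2.12), a difference of 2.88 with standard error 0.62 and edgeR adjusted p = 0.00494, and its TIGK values are near the count limit.

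CTGF, a matricellular protein and YAP target, went from 322 to 738 normalized counts in HaCaT (log2 fold change 1.20) and from 349 to 10667 in TIGK (4.93), a difference of -3.73 with standard error 0.11 and edgeR adjusted p = 7.11e-14, so that it rose in both lines and by more in TIGK. EGR3, a zinc finger factor, went from 329.9 to 639 normalized counts in HaCaT (log2 fold change 0.95) and from 132 to 2173 in TIGK (4.04), a difference of -3.09 with standard error 0.22 and edgeR adjusted p = 4.42e-08. The antisense gene LUCAT1 went from 148 to 11.8 normalized counts in HaCaT (log2 fold change -3.66) and from 69.7 to 53.7 in TIGK (-0.37), a difference of -3.29 with standard error 0.65 and edgeR adjusted p = 0.00253. IGFN1 went from 121 to 10.7 normalized counts in HaCaT (log2 fold change -3.48) and from 9.33 to 7.43 in TIGK (-0.26), a difference of -3.22 with standard error 0.68 and edgeR adjusted p = 0.0044, and in TIGK it was near the count limit before and after. ARL14, a small GTPase, went from 884 to 501 normalized counts in HaCaT (log2 fold change -0.82) and from 28.9 to 107 in TIGK (1.89), a difference of -2.71 with standard error 0.26 and edgeR adjusted p = 1.16e-06, with opposite directions in the lines.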

How the results depend on the processing

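All 15792 genes gave 2139 higher and 2518 lower calls. The higher calls numbered 3246 with all 12 libraries in the fit and 3538 at an adjusted p under 0.05, and with a log2 fold change over 1 required as well the counts were 132 higher and 711 lower. DESeq2 gave 2456 higher and 2770 lower, and no filter on low counts 2919 and 2831. Leaving out each library gave 1061 to 2586 higher and 1770 to 2680 lower genes. For the difference between the lines (496 and 385), DESeq2 gave 689 lower, no filter 769 lower and an adjusted p under 0.05 1172 higher and 847 lower, and leaving out each library gave 186 to 637 higher and 266 to 704 lower. The fall of the mitochondrial share ranged from -2.84 to -2.74 points when each library was left out, and was -1.82 points of protein-coding counts. With the length trend removed FTL changed from 0.33 to -0.011 and SOD2 from -0.08 to 0.24. The causes of these moves were not tested. Low counts limit what could be called in non-coding genes.

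Same-numbered replicates did not deviate together (correlations of -0.032, 0.011 and -0.014), and not every library correlated best with its own number. With the replicate number as a block 1671 genes were higher and 2224 lower, and for the difference between the lines 271 higher and 268 lower.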
